A study of Mus musculus with 6 samples.

Results

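The 10 genes described here serve folding and stress responses in the endoplasmic reticulum (ER), and were chosen by symbol: Hspa5, Hsp90b1, Pdia3, Pdia4, Pdia6, Sdf2l1, Herpud1, Xbp1, Atf4 and Ddit3. All 10 were listed in each of the 6 libraries, among 27933 genes. The libraries are Drop-seq single-cell RNA profiles, in which barcodes mark the cell and unique molecular identifiers (UMIs) mark each RNA molecule captured, of tumours of the mouse breast cancer line 4T1 in Balb/c mice. There were 3 tumours given FVIO-MHT and 3 given PBS, all sampled 24 hours later. FVIO-MHT is mild magnetic hyperthermia: ferrimagnetic vortex iron oxide nanorings were placed in the tumour at 0.1 mg per cm3 of its volume, and the mouse then stood in a magnetic field that alternated at 365 kHz for 10 min. The same treatment text stands on all 6 samples, and it does not state whether PBS tumours met the field. Every tumour went through enzymatic digestion and red blood cell lysis. Nothing in the labels ties a replicate to a mouse of its own, and p-values therefore cover the spread between these libraries alone, which may be technical. The members are set out over 6730 barcodes with at least 200 detected genes, of 30000 listed. Levels are UMIs of a gene per 1000000 UMIs of the barcodes summed (CPM), and each library or class sum is 1 value.

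The ER lumen holds chaperones and disulfide isomerases that fold membrane and secreted proteins. When unfolded protein builds up, the sensors PERK, IRE1 and ATF6 start the unfolded protein response: IRE1 splices Xbp1 messenger RNA into the form that encodes an active transcription factor, ATF6 is cut by Golgi proteases, and PERK phosphorylates eIF2α, which favours translation of ATF4. ATF6 and XBP1 raise chaperone genes, and ATF4 raises Ddit3, which encodes the pro-apoptotic factor CHOP. Secretory, fast-growing and heat-exposed cells are settings in which this response is often studied. The UMI counts used here sum over all transcripts of a gene, so spliced and unspliced Xbp1 cannot be told apart.

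The libraries differ in cell makeup and depth. Total depth ran from 678337 to 2207534 UMIs and the kept barcodes numbered 332 to 2325 per library. Clustering without the members and their pathway genes gave 17 clusters, of which 12 could be named from marker genes. Cluster 9, led by Fabp4, Pdlim1 and Aqp1, held endothelial markers and cluster 12, led by Icos, Satb1 and Rora, held T-cell markers. None of those markers was among their 10 leading genes, where markers of other classes stood, so both are given by number and were not compared between FVIO-MHT and PBS. Class means below are ordered over these 2 clusters and the 5 named classes present with at least 20 barcodes in 2 or more libraries. The labels call the samples breast cancer cells, but FVIO-MHT replicate 1 held 0 tumour epithelial-like barcodes of 332, which allows a share of up to 0.904%, and 79.8% of it was neutrophil-like. Among the tests as first specified it enters only those over whole tumours, and its other values are descriptions. PBS replicates 2 and 3 shared 33 barcodes, 6.85% of the barcodes of PBS replicate 3, and 31 of these lay in the same class in both. The summed level of 10 cytosolic heat shock genes was 1733, 3597 and 5763 CPM with FVIO-MHT (replicates 1 to 3), against 5835, 16744 and 13414 CPM with PBS (replicates 1 to 3), so the PBS tumours that share barcodes also stood apart here.

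Several of these genes carry a known control sequence before their start. The ER stress element, the site at which ATF6 and XBP1 act together with NF-Y, was searched as CCAAT, any 9 bases and CCACG on both strands of the 250 bases before each RefSeq start (GRCm38.p6). It lay in 3 of 10 member promoters, those of Hspa5, Hsp90b1 and Pdia6, and in 37 of 32851 promoters of the same length (0.113%). The related element II, ATTGG, any base and CCACG, lay in 1 member promoter, that of Herpud1, and in 10 of all promoters (0.0304%). A form with 1 G fewer, ATTG, any base and CCACG, lay in 1 member promoter, that of Pdia6, and in 24 of all promoters (0.0731%). The core CCACG, part of each of these motifs, was present in 6 of 10 members and in 28.3% of all promoters. The 4 promoters with a full element are shown, since they are the letters that set these members apart from most promoters. Sequences run 5′ to 3′ on the gene's own strand, and capitals mark the matches.
Hspa5 (chr2:34771840-34772089, plus strand): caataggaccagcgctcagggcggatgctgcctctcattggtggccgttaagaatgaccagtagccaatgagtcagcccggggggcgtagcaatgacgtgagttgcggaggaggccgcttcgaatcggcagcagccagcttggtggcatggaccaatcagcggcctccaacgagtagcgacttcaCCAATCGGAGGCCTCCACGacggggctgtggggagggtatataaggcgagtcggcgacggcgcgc
Hsp90b1 (chr10:86705445-86705694, minus strand): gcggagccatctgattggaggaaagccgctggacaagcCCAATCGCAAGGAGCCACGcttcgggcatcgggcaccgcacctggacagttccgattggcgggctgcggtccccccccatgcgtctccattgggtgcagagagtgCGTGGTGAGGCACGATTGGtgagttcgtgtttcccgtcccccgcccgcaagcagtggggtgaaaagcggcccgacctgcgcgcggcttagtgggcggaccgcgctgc
Pdia6 (chr12:17266339-17266588, plus strand): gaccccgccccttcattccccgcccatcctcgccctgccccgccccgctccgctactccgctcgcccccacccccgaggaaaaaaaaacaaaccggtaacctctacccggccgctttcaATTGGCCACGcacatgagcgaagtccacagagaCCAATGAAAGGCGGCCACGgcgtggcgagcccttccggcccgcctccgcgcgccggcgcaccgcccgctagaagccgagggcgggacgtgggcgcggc
Herpud1 (chr8:94386179-94386428, plus strand): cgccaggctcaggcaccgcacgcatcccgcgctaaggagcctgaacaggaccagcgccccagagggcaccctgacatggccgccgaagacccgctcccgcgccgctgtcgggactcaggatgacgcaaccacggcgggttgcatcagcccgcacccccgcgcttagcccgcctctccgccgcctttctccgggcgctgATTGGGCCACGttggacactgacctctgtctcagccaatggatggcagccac
In the Hsp90b1 promoter the second match reads on the opposite strand. GENCODE places the first base of Hspa5, Hsp90b1 and Pdia6 further upstream than RefSeq does, inside these windows. A match describes letters in this window and is not a measured site, and no match says only that these letters are not in the window.

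Hspa5 encodes BiP, the main HSP70-type chaperone of the ER and the regulator that holds the stress sensors inactive (gene at chr2:34771970-34777547, GRCm38, plus strand). Over whole tumours it stood at 1937, 2594 and 2996 CPM with FVIO-MHT (replicates 1 to 3), against 3512, 2806 and 3175 CPM with PBS (replicates 1 to 3). FVIO-MHT replicate 1 was the lowest library and PBS replicate 1 the highest, and the groups overlapped. Tumour epithelial-like cells, named from keratins and Epcam, held 3112 and 3052 CPM with FVIO-MHT (replicates 2 and 3), against 4235, 2947 and 3695 CPM with PBS (replicates 1 to 3). The level in macrophage/monocyte-like cells, led by C1qa, Apoe and Ctss, was 2601 and 3238 CPM with FVIO-MHT (replicates 2 and 3), against 3196, 1971 and 2608 CPM with PBS (replicates 1 to 3). In neutrophil-like cells it was 1838 and 1751 CPM with FVIO-MHT (replicates 1 and 2), against 1766 CPM with PBS (replicate 1), the narrowest spread of any class of 3 or more libraries. By mean over libraries, tumour epithelial-like cells came first with 3408 ± 546 CPM (SD, n = 5), then macrophage/monocyte-like cells with 2723 ± 520.2 CPM (SD, n = 5) and fibroblast-like cells with 2516 ± 826 CPM (SD, n = 4). The ranges of these neighbours overlapped, while skin keratinocyte-like cells, last with 1606 ± 109 CPM (SD, n = 3), lay apart from neutrophil-like cells just above them.

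Hsp90b1 encodes GRP94, the HSP90-type chaperone of the ER, which folds toll-like receptors and integrins (chr10:86690209-86705509, minus strand). Over whole tumours it stood at 723, 2626 and 3827 CPM with FVIO-MHT (replicates 1 to 3), against 3547, 4822 and 3853 CPM with PBS (replicates 1 to 3). The 723 CPM of FVIO-MHT replicate 1 lay far under every other library, and the other FVIO-MHT tumours spread across the PBS range or below it. In tumour epithelial-like cells the level was 3659 and 3854 CPM with FVIO-MHT (replicates 2 and 3), against 4025, 4935 and 4743 CPM with PBS (replicates 1 to 3). Macrophage/monocyte-like cells held 2499 and 4180.1 CPM with FVIO-MHT (replicates 2 and 3), against 3623, 4763 and 3092 CPM with PBS (replicates 1 to 3). Neutrophil-like cells held 543 and 564 CPM with FVIO-MHT (replicates 1 and 2), against 676 CPM with PBS (replicate 1). They were the last class, and every one of their values lay below every value of the other 6 sets, whose lowest was 1671 CPM in skin keratinocyte-like cells. Hsp90b1 overlaps 1810014B01Rik on the other strand, and since it is not stated whether counting used strand, reads of the pair cannot be told apart.

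**Figure D1:**
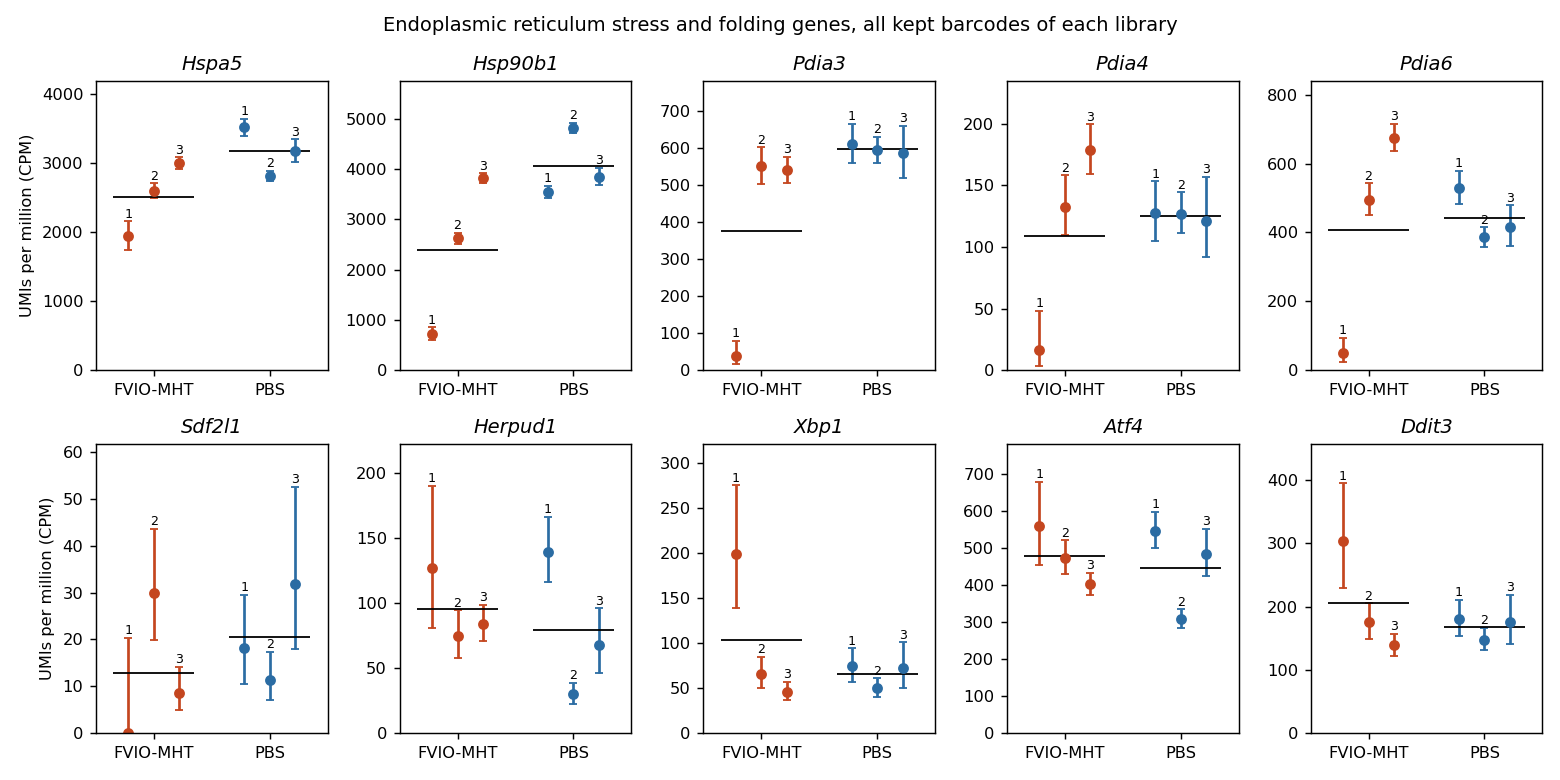
Level of each gene (vertical axis, CPM) in each library over all kept barcodes, with FVIO-MHT libraries left of PBS libraries. Points are libraries numbered by replicate, bars are exact Poisson 95% intervals of the count and black lines are group means. FVIO-MHT replicate 1 is the lowest library for Hspa5, Hsp90b1 and the Pdia genes and the highest for Xbp1 and Ddit3.

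The protein disulfide isomerases Pdia3, Pdia4 and Pdia6 form and rearrange disulfide bonds, and Pdia3 (ERp57) also works on glycoproteins with calreticulin and calnexin and in loading of MHC class I. Pdia3 (chr2:121413775-121438687, plus strand) stood at 38.6, 551 and 539.7 CPM with FVIO-MHT (replicates 1 to 3), against 609.9, 593 and 586 CPM with PBS (replicates 1 to 3). It was the 1 member whose FVIO-MHT libraries all lay below all PBS libraries, an order held by 9.46% of the genes tested. For 0 members did all FVIO-MHT libraries lie above all PBS libraries, which 3.17% of the genes did. The count in FVIO-MHT replicate 1 was 7 UMIs. Pdia4 (chr6:47796141-47813430, minus strand) stood at 16.6, 132 and 179 CPM with FVIO-MHT (replicates 1 to 3), against 127, 127 and 121 CPM with PBS (replicates 1 to 3). Pdia6 (chr12:17266545-17284770, plus strand) stood at 49.7, 495 and 675 CPM with FVIO-MHT (replicates 1 to 3), against 528, 385 and 416 CPM with PBS (replicates 1 to 3). For both, FVIO-MHT replicate 1 was lowest and FVIO-MHT replicate 3 highest of all 6 libraries, so the FVIO-MHT values enclosed those of PBS.

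By class, Pdia3 in tumour epithelial-like cells was 720.3 and 525 CPM with FVIO-MHT (replicates 2 and 3), against 701, 592 and 608 CPM with PBS (replicates 1 to 3). The macrophage/monocyte-like level was 584 and 671 CPM with FVIO-MHT (replicates 2 and 3), against 529.8, 672 and 762 CPM with PBS (replicates 1 to 3). Neutrophil-like cells held 27.9 and 58.8 CPM with FVIO-MHT (replicates 1 and 2), against 75.1 CPM with PBS (replicate 1), from 4 and 10 UMIs in the FVIO-MHT sums and 2 in the PBS sum. They were again the last class and apart from the rest: the next lowest value was 281 CPM in the 1 library with B-like cells, and then 362 CPM in cluster 9. Pdia6 ran the same way, with 579 ± 135 CPM (SD, n = 5) in tumour epithelial-like cells, 549 ± 147 CPM (SD, n = 5) in macrophage/monocyte-like cells and 95.9 ± 72.2 CPM (SD, n = 3) in neutrophil-like cells, whose range met that of cluster 12. Pdia4 had 148 ± 24.3, 168 ± 75.7 and 10.2 ± 12.1 CPM in these classes, and in neutrophil-like cells rested on 1 and 4 UMIs with FVIO-MHT and 0 with PBS. The highest Pdia4 class mean, 195 ± 125 CPM in fibroblast-like cells (SD, n = 4), was carried by 374 CPM in FVIO-MHT replicate 3. Pdia3 overlaps Catsper2 and Pdia6 overlaps Atp6v1c2 on the other strand, which leaves the same limit as for Hsp90b1.

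Sdf2l1 encodes a partner of ER-resident HSP40 and BiP complexes, and Herpud1 encodes HERP, a membrane component of ER-associated degradation that is among the most strongly stress-induced genes. Sdf2l1 (chr16:17130138-17132383, minus strand) was the scarcest member, at 0, 29.97 and 8.59 CPM with FVIO-MHT (replicates 1 to 3), against 18.2, 11.3 and 31.9 CPM with PBS (replicates 1 to 3). The 0 UMIs of FVIO-MHT replicate 1, of 181213, allow up to 16.6 CPM at 3 counts. Macrophage/monocyte-like cells had the highest class mean, with 109.6 and 36.7 CPM with FVIO-MHT (replicates 2 and 3), against 34.2, 38.8 and 87.9 CPM with PBS (replicates 1 to 3). Tumour epithelial-like cells had 20.1 and 2.00 CPM with FVIO-MHT (replicates 2 and 3), against 20.7, 7.07 and 16.9 CPM with PBS (replicates 1 to 3). Neutrophil-like cells had 0 UMIs in all 3 libraries, which allows up to 20.9 and 17.6 CPM with FVIO-MHT (replicates 1 and 2) and 113 CPM in PBS replicate 1, limits that reach into the range of tumour epithelial-like cells.

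Herpud1 (chr8:94386438-94395377, plus strand) stood at 127, 74.4 and 84.1 CPM with FVIO-MHT (replicates 1 to 3), against 139.7, 29.6 and 68.0 CPM with PBS (replicates 1 to 3). PBS replicate 1 was the highest library and PBS replicate 2 the lowest, so the spread within PBS was as wide as that over all 6. Both large classes showed PBS replicate 1 on top: tumour epithelial-like cells had 60.2 and 61.9 CPM with FVIO-MHT (replicates 2 and 3), against 112, 19.3 and 25.3 CPM with PBS (replicates 1 to 3). Macrophage/monocyte-like cells had 58.4 and 110.2 CPM with FVIO-MHT (replicates 2 and 3), against 359, 129 and 103 CPM with PBS (replicates 1 to 3). Neutrophil-like cells held 146 and 64.6 CPM with FVIO-MHT (replicates 1 and 2), against 37.6 CPM with PBS (replicate 1), the last from 1 UMI. Herpud1 overlaps Gm15890 on the other strand.

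The transcription factor genes had their highest value where the chaperones had their lowest. Xbp1 (chr11:5520659-5525893, plus strand), the IRE1 target, stood at 199, 65.5 and 45.8 CPM with FVIO-MHT (replicates 1 to 3), against 73.8, 49.5 and 72.2 CPM with PBS (replicates 1 to 3). Ddit3 (chr10:127290774-127296288, plus strand), which encodes CHOP, stood at 304, 175 and 139 CPM with FVIO-MHT (replicates 1 to 3), against 181, 147 and 176 CPM with PBS (replicates 1 to 3). For both genes FVIO-MHT replicate 1, the neutrophil-rich library, was highest and the other 5 libraries lay close together. Atf4 (chr15:80255184-80257541, plus strand), the factor translated under PERK signalling, stood at 557, 473 and 401 CPM with FVIO-MHT (replicates 1 to 3), against 546, 307 and 484 CPM with PBS (replicates 1 to 3). Its groups overlapped, with FVIO-MHT replicate 1 highest and PBS replicate 2 lowest. Over whole tumours, more cells of a class and more RNA per cell cannot be told apart.

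Neutrophil-like cells had the highest mean of the 7 for Ddit3, with 348 and 423 CPM with FVIO-MHT (replicates 1 and 2), against 564 CPM with PBS (replicate 1). Macrophage/monocyte-like cells had 168 and 234 CPM with FVIO-MHT (replicates 2 and 3), against 205, 219.7 and 381 CPM with PBS (replicates 1 to 3). Tumour epithelial-like cells had 108 and 101 CPM with FVIO-MHT (replicates 2 and 3), against 155, 135 and 122 CPM with PBS (replicates 1 to 3), last by mean but for cluster 9. By mean, neutrophil-like cells were also first for Xbp1, with 237 and 99.9 CPM with FVIO-MHT (replicates 1 and 2), against 263 CPM with PBS (replicate 1). Macrophage/monocyte-like cells had 102 and 64.3 CPM with FVIO-MHT (replicates 2 and 3), against 34.2, 58.2 and 87.9 CPM with PBS (replicates 1 to 3), and tumour epithelial-like cells 12.5 and 37.0 CPM with FVIO-MHT (replicates 2 and 3), against 74.1, 46.3 and 46.5 CPM with PBS (replicates 1 to 3). These Xbp1 values rest on few molecules: 34 and 17 UMIs with FVIO-MHT and 7 with PBS in neutrophil-like cells. Atf4 had its highest mean in macrophage/monocyte-like cells, with 636 and 744 CPM with FVIO-MHT (replicates 2 and 3), against 820.3, 633 and 703 CPM with PBS (replicates 1 to 3). Its lowest was in tumour epithelial-like cells, with 349 and 264 CPM with FVIO-MHT (replicates 2 and 3), against 493, 258 and 342 CPM with PBS (replicates 1 to 3). In every library with both classes the macrophage/monocyte-like value of Atf4 was the larger. Ddit3 overlaps Mars on the other strand.

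Fibroblast-like cells, the collagen-producing class, held Hsp90b1 at 2533 and 4535 CPM with FVIO-MHT (replicates 2 and 3), against 5152 and 3894 CPM with PBS (replicates 2 and 3), and Pdia6 at 429.6 and 704 CPM with FVIO-MHT (replicates 2 and 3), against 561 and 379.9 CPM with PBS (replicates 2 and 3). Their mean for Hsp90b1, 4028 ± 1121 CPM (SD, n = 4), was second to that of tumour epithelial-like cells and overlapped it. Cluster 12 had the highest mean for Pdia3, 742 ± 169 CPM, and for Herpud1, 188 ± 122 CPM (SD, n = 4 each), both overlapping the next class. Cluster 9, present in 2 libraries with at least 20 barcodes, had the lowest mean for Ddit3, at 77.4 CPM with FVIO-MHT (replicate 3) and 45.3 CPM with PBS (replicate 2), from 6 and 1 UMIs. Skin keratinocyte-like cells had the lowest mean for Hspa5 and, with 28.4 ± 26.5 CPM (SD, n = 3), for Xbp1.

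B-like cells were seen in numbers only in PBS replicate 1, with 176 barcodes. Hspa5 was at 1052 CPM, below all 7 means, and Hsp90b1 at 3107 CPM, within the range of macrophage/monocyte-like cells. Herpud1 was at 245 CPM, Pdia3 at 281 CPM and Xbp1, the factor needed for plasma cells, at 85.6 CPM. The Xbp1 value rests on 7 UMIs, and with 1 library there was no test.

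Clusters that could not be named carried the genes as well. A cluster with both macrophage and neutrophil markers, led by Saa3, Cxcl3 and Pf4, lay mostly in FVIO-MHT replicate 1, where 58 of its 71 barcodes were found. There Hspa5 was at 2587 CPM, Hsp90b1 at 1278 CPM and Atf4 at 798 CPM, above the neutrophil-like cells of the same tumour with 1838, 543 and 487 CPM. A cluster led by haemoglobin and keratin genes, with 918 of 976 barcodes in FVIO-MHT replicate 3, held Hspa5 at 2567 CPM and Hsp90b1 at 3731 CPM. A cluster with mammary luminal and tumour epithelial markers, led by Ptn, Prlr and Krt19, lay almost wholly in the PBS tumours and had Hspa5 at 3778, 3243 and 5578 CPM with PBS (replicates 1 to 3). The value in PBS replicate 3 exceeded every class sum of Hspa5 with at least 20 barcodes. This cluster was left out of the tumour epithelial-like class and its comparison between FVIO-MHT and PBS.

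**Figure D2:**
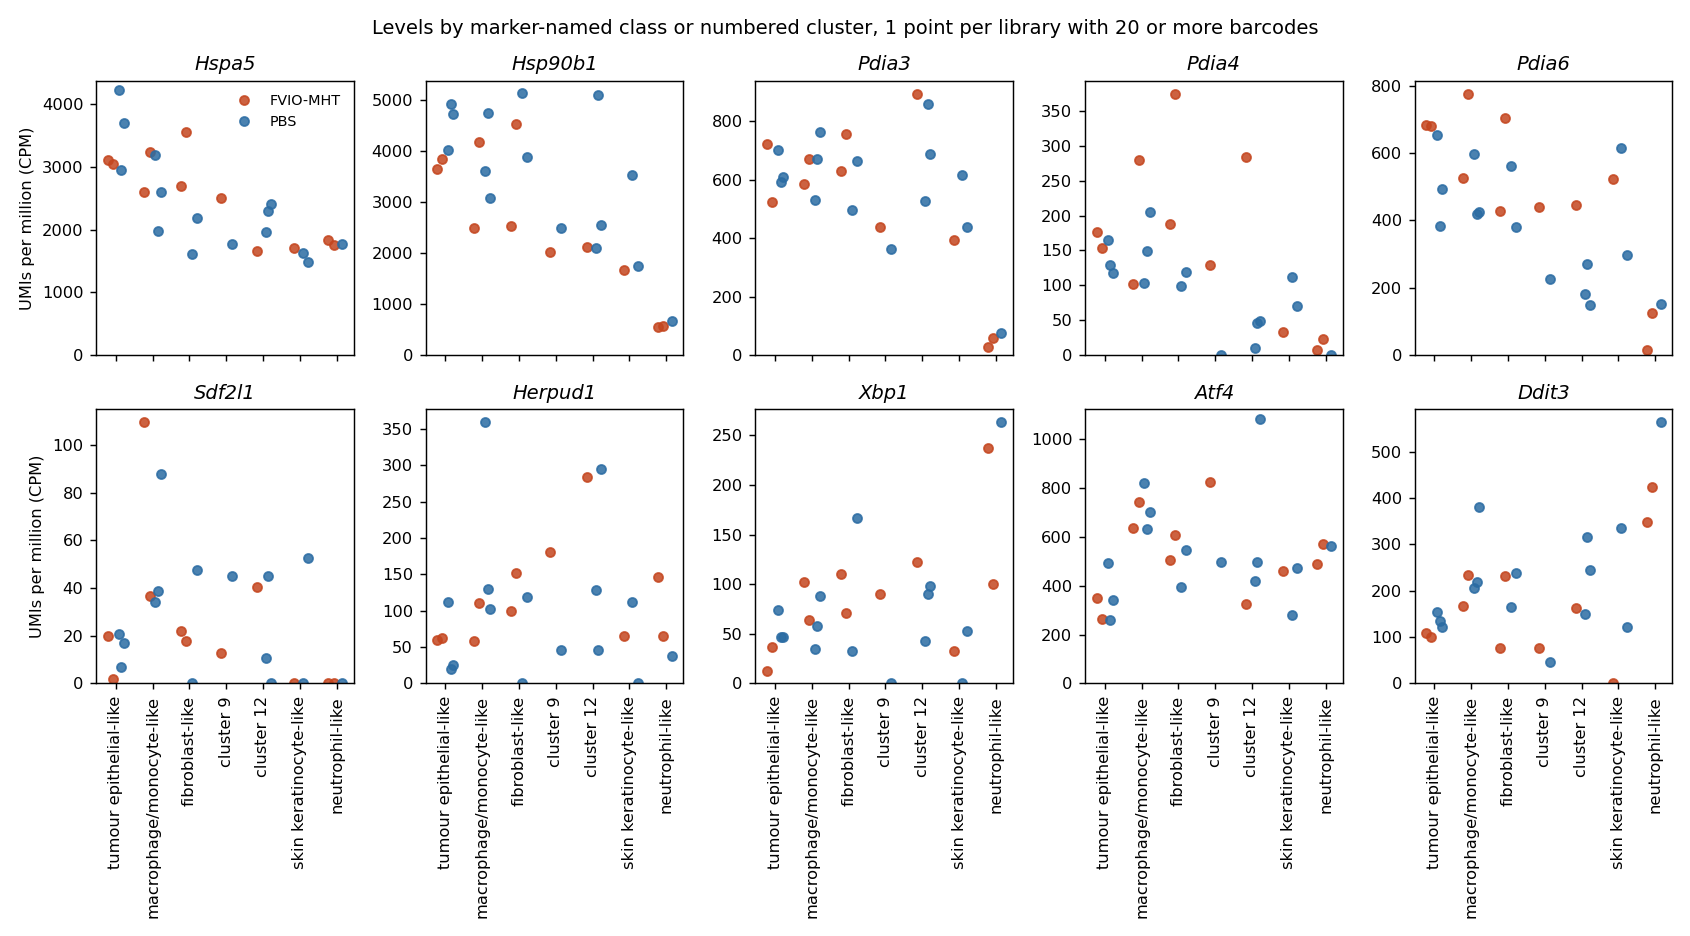
Level of each gene (vertical axis, CPM) by marker-named class or numbered cluster (horizontal axis), 1 point per library with at least 20 barcodes of the class, FVIO-MHT left and PBS right within a class. Hsp90b1 and Pdia3 are lowest in all 3 neutrophil-like sums, where Ddit3 and Xbp1 have their highest class means, and Atf4 is lowest by mean in tumour epithelial-like cells.

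The barcodes under the gene minimum, which hold free RNA, shallow cells or both, carried the members too. Hspa5 lay there at 1764, 2061 and 2459 CPM with FVIO-MHT (replicates 1 to 3) and at 1709, 1929 and 2063 CPM with PBS (replicates 1 to 3). Hsp90b1 lay there at 486 and 1175 CPM with FVIO-MHT (replicates 1 and 2) and 1549.9 CPM with PBS (replicate 1). The neutrophil-like cells of FVIO-MHT replicate 2 and PBS replicate 1 were under that level, and those of FVIO-MHT replicate 1 just over it. The number of Hspa5 UMIs per Hsp90b1 UMI was 3.38 and 3.10 with FVIO-MHT (replicates 1 and 2) and 2.61 with PBS (replicate 1) in neutrophil-like cells. In the barcodes under the minimum of these libraries it was 3.63 and 1.75 with FVIO-MHT and 1.10 with PBS. For macrophage/monocyte-like cells it was 1.04 with FVIO-MHT (replicate 2) and 0.882 with PBS (replicate 1). The part of free RNA in the class levels was not tested.

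Set against macrophage/monocyte-like cells of the same libraries, neutrophil-like cells had lower Hsp90b1, Pdia3 and Pdia6 and higher Ddit3, while Hspa5 did not pass. The comparison had 2 libraries with at least 20 barcodes of both classes, FVIO-MHT replicate 2 and PBS replicate 1, and used edgeR's quasi-likelihood test with the library as a block. So few sums leave little spread to measure for a single gene, and the p-values lean on spread estimated over all genes. Pdia3 was lower, with a log2 fold change of -2.84 ± 0.52 (SE) and an edgeR adjusted p of 7.16e-05. It stood at 58.8 and 75.1 CPM in neutrophil-like cells and 584 and 529.8 CPM in macrophage/monocyte-like cells of those libraries. Pdia3 met the filter on low counts through the macrophage/monocyte-like sums alone, so a lower value was favoured in advance. Hsp90b1 changed by -1.99 ± 0.35 (edgeR adjusted p = 5.07e-05), at 564 and 676 CPM and 2499 and 3623 CPM, and Pdia6 by -1.74 ± 0.46 (edgeR adjusted p = 0.00400), at 123 and 150.3 CPM and 526 and 598 CPM. Ddit3 was higher, at 423 and 564 CPM and 168 and 205 CPM, with a log2 fold change of 1.65 ± 0.44 (edgeR adjusted p = 0.00399). In both libraries each of these 4 differences had the same direction. Altogether, 3 of 6 members tested were lower, where 15.2% of 2112 genes were, and 1 was higher, where 17.0% were. The 3 include Pdia3, with the limit given. The median over the 6 was -1.09 on the log2 scale and that over all genes -0.022. Hspa5, at -0.44 ± 0.33, and Atf4, at -0.031 ± 0.39, did not pass (edgeR adjusted p = 0.311 and 0.962). Pdia4, Xbp1, Herpud1 and Sdf2l1 had too few UMIs to be tested. At a clustering resolution of 2 Xbp1 was tested and did not pass, at 0.79 ± 0.65 (edgeR adjusted p = 0.379).

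Both neutrophil-like sums were made mostly of the cluster led by S100a9, S100a8 and Il1b, while that of FVIO-MHT replicate 1 was made mostly of another, led by S100a9, S100a8 and Saa3. The cluster led by S100a9, S100a8 and Il1b also carried fibroblast markers. In neutrophil-like cells these markers summed to 1093 CPM with FVIO-MHT (replicate 2) and 75.1 CPM with PBS (replicate 1). Macrophage/monocyte-like cells of the same libraries held 833 and 154 CPM of them, and the part of these markers was not tested. Median depth was 388 UMIs a barcode in neutrophil-like cells and 498.5 UMIs in macrophage/monocyte-like cells with FVIO-MHT (replicate 2), and 390 UMIs and 459 UMIs with PBS (replicate 1), and its part was not tested. Scaling by total UMIs alone moved the median of all genes by -0.42 on the log2 scale. With that scaling Hspa5 also passed, at -0.82 (edgeR adjusted p = 0.00751), the other calls of members stood, and 31.5% of all called genes were higher, against 52.8% in the main comparison. Leaving out either library left no replicate to test with.

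Tumour epithelial-like cells, set against macrophage/monocyte-like cells of the same 5 libraries, held lower levels of Atf4, Ddit3 and Herpud1, the regulators of the PERK branch and the degradation gene, while Hspa5, Hsp90b1, Pdia3, Pdia4 and Pdia6 did not pass. Atf4 differed by -1.26 ± 0.19 on the log2 scale (SE; edgeR adjusted p = 6.29e-05), Herpud1 by -1.59 ± 0.34 (edgeR adjusted p = 0.00116) and Ddit3 by -1.09 ± 0.23 (edgeR adjusted p = 0.00110). In CPM, Atf4 and Ddit3 were lower in tumour epithelial-like cells in 5 of 5 libraries and Herpud1 in 4 of 5. In FVIO-MHT replicate 2 the Herpud1 values were 60.2 CPM in tumour epithelial-like and 58.4 CPM in macrophage/monocyte-like cells. So 3 of 9 members tested were lower, where 23.9% of 4163 genes were, and 0 were higher, where 21.2% were, or 45.0% in either direction. The median over the 9 was -0.34 and that over all genes 0.075 on the log2 scale. These 3 calls stood when each library was left out in turn and in every other alternative run.

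Among the folding genes, Hspa5 differed by 0.17 ± 0.19 (edgeR adjusted p = 0.497), Hsp90b1 by 0.086 ± 0.19 (edgeR adjusted p = 0.741) and Pdia6 by -0.093 ± 0.19 (edgeR adjusted p = 0.710). Pdia3 and Pdia4 had values of -0.21 ± 0.20 and -0.34 ± 0.27. A p that misses the threshold does not show equal levels. Xbp1, at -0.98 ± 0.42 (edgeR adjusted p = 0.0673), passed without PBS replicate 1, at -1.26 (edgeR adjusted p = 0.0211). Sdf2l1 had too few UMIs for the test over all 5 libraries. Without PBS replicate 3 it met the filter on low counts, through the macrophage/monocyte-like sums alone. Its value there, -2.55 (edgeR adjusted p = 0.00115), was therefore favoured in advance and is not read as a result. The tumour epithelial-like barcodes were deeper, with medians of 960.5 to 1387 UMIs against 389 to 566 UMIs in macrophage/monocyte-like cells, and scaling by total UMIs alone moved the median of all genes by 0.18 and left the 3 calls in place. The part of depth was not tested.

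**Figure D3:**
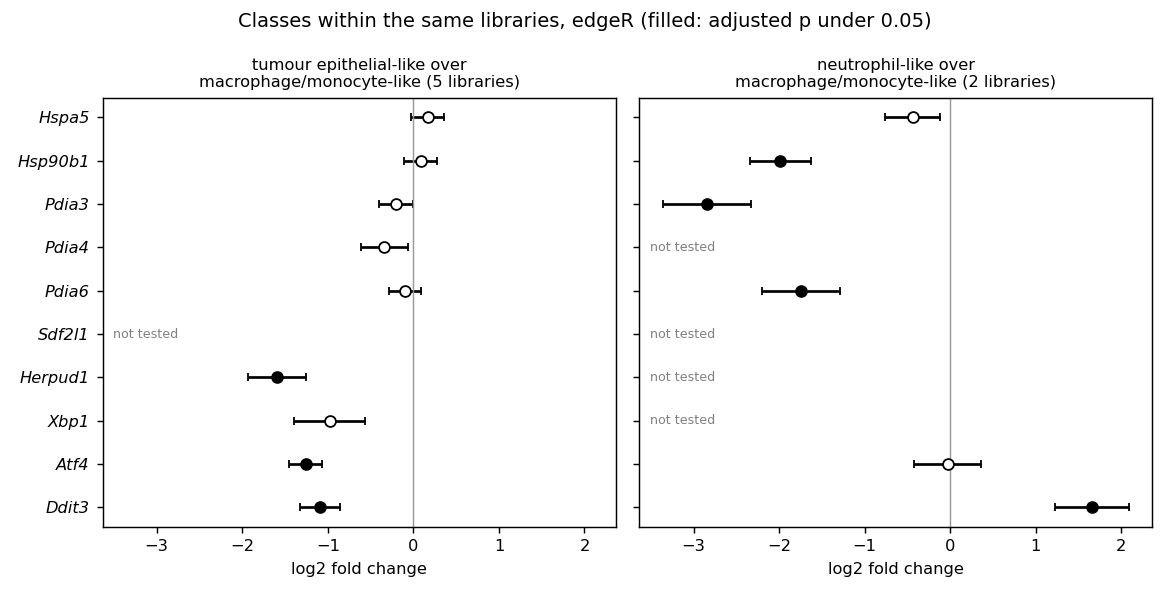
Log2 fold change of each gene (horizontal axis) between classes of the same libraries, from edgeR. Points are estimates, bars 1 standard error, and filled points have an adjusted p under 0.05. Pdia3, Hsp90b1 and Pdia6 are lower and Ddit3 higher in neutrophil-like cells, and Herpud1, Atf4 and Ddit3 are lower in tumour epithelial-like cells, each relative to macrophage/monocyte-like cells.

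Other genes of the pathway were taken from a list of 61, of which 60 were listed in the files. In tumour epithelial-like against macrophage/monocyte-like cells, 23.9% of all 4163 genes were lower and 21.2% higher, or 45.0% in either direction. Of the pathway genes, 16 of 39 tested were lower and 2 higher. The lower ones included 6.0 of 12 chaperone genes, among them Calr at -0.60 ± 0.18, P4hb at -1.26 ± 0.21, Erp29 at -1.39 ± 0.20, Dnajb11 at -1.15 ± 0.31, Creld2 at -1.04 ± 0.30 and Manf at -0.56 ± 0.19 on the log2 scale. Degradation genes Edem1 (-2.69 ± 0.25), Sel1l (-1.05 ± 0.31) and Os9 (-0.67 ± 0.21) and the translocation and signal peptide genes Spcs2 (-0.93 ± 0.20), Spcs3 (-0.82 ± 0.27) and Sec61b (-0.57 ± 0.18) were lower as well. Of the PERK and ATF4 targets, Slc7a11, the cystine transporter, at -3.70 ± 0.25, the eIF2α phosphatase subunits Ppp1r15a, at -1.07 ± 0.29, and Ppp1r15b, at -1.09 ± 0.37, and Cebpg, at -0.86 ± 0.30, were lower. Nupr1, a stress-induced chromatin protein that belongs to the same list of targets, was higher, at 0.96 ± 0.25. Of the 7 genes tested from that list, 4 had values below 0 and 3 above. Mbtps1, the protease that first cuts ATF6, was also higher, at 1.08 ± 0.35. The edgeR adjusted p-values of these 18 genes ran from 3.72e-09 to 0.0268, and the median over the 39 was -0.46 on the log2 scale. With total UMIs alone as the scale, 9 were lower and 5 higher, and 59.1% of all called genes were higher, against 47.0% in the main comparison. Without PBS replicate 2, 7 were lower and 4 higher, and without FVIO-MHT replicate 2, 11 were lower and 2 higher.

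In neutrophil-like against macrophage/monocyte-like cells, 15.2% of all 2112 genes were lower and 17.0% higher, or 32.2% in either direction. Of the pathway genes, 8 of 23 tested were lower and 3 higher. The lower ones were Calr, the lectin chaperone that works with Pdia3, at -1.90 ± 0.42, its membrane-bound relative Canx at -1.60 ± 0.43, Dnajc3 at -1.97 ± 0.63 and Manf at -1.65 ± 0.49, then Vcp, the ATPase of ER-associated degradation, at -2.65 ± 0.60, and Spcs2, Spcs3 and Sec61b at -2.23 ± 0.60, -2.28 ± 0.79 and -1.27 ± 0.48 on the log2 scale. The higher ones were all PERK and ATF4 targets: Ero1l, the oxidase that recharges disulfide isomerases, at 2.48 ± 0.50, Ppp1r15a at 1.33 ± 0.45 and Slc7a11 at 1.14 ± 0.39. Their edgeR adjusted p-values ran from 0.000236 to 0.0401, and the median over the 23 was -0.89 on the log2 scale. With total UMIs alone as the scale, 12 were lower and 1 higher.

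Between FVIO-MHT and PBS tumours no member passed the test, over whole tumours or within a class. Over whole tumours 0 of 10 members passed, as did 0 of 8603 genes (0.0%) with edgeR. Unadjusted p was under 0.05 for 0 members and 451 genes, and DESeq2 called 185 genes, 0 of them members. The values ran from -0.71 ± 0.64 for Hsp90b1 to 1.07 ± 0.77 for Xbp1 on the log2 scale (SE), with edgeR adjusted p of 0.904 to 0.999. The median over the 10 was -0.11 and that over all genes -0.043. Between these ends stood Hspa5 at -0.12 ± 0.55, Pdia3 at -0.65 ± 0.71, Pdia4 at -0.11 ± 0.57, Pdia6 at -0.10 ± 0.69, Atf4 at 0.42 ± 0.55, Ddit3 at 0.67 ± 0.59, Herpud1 at 0.58 ± 0.67 and Sdf2l1 at -0.28 ± 0.74. Without PBS replicates 2 and 3, which share barcodes, 0 members passed in whole tumours or in either large class. Without FVIO-MHT replicate 1 the value of Pdia3 was -0.15, and those of Xbp1, Ddit3 and Atf4 turned to -0.24, -0.12 and -0.042. Without the neutrophil-like barcodes, Ddit3 and Xbp1 stood at -0.41 and -0.35.

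In tumour epithelial-like cells, with 2 FVIO-MHT and 3 PBS libraries, 0 of 10 members and 0 of 7583 genes (0.0%) passed with edgeR. Unadjusted p was under 0.05 for 1 member and 692 genes, and DESeq2 called 32 genes and 0 members. Xbp1 had the lowest p of the members, with 24.8 ± 17.3 CPM in FVIO-MHT libraries (SD, n = 2) and 55.6 ± 16.0 CPM in PBS libraries (SD, n = 3). These rest on 5 and 37 UMIs with FVIO-MHT and 43, 72 and 11 UMIs with PBS. The log2 fold change was -1.12 ± 0.47 (SE), with an edgeR adjusted p of 0.524. The FVIO-MHT values of Hsp90b1, Ddit3 and Xbp1 all lay below those of PBS, an order held by 9.34% of genes. Hsp90b1 had 3757 ± 138 CPM with FVIO-MHT (SD, n = 2) and 4568 ± 479.8 CPM with PBS (SD, n = 3), and Ddit3 104 ± 4.95 CPM and 137 ± 16.4 CPM. Pdia6 lay above, with 682 ± 4.03 CPM and 511 ± 136 CPM, as did 17.5% of genes. These 4 differences had edgeR adjusted p of 0.524 to 0.777. Of the others, Hspa5 was at -0.33 ± 0.30, Atf4 at -0.35 ± 0.34, Pdia3 at -0.13 ± 0.29, Pdia4 at 0.15 ± 0.30, Herpud1 at 0.14 ± 0.64 and Sdf2l1 at -0.71 ± 0.97 on the log2 scale. The median over the 10 was -0.34 and that over all genes 0.0097.

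Different clusters made up the class in different tumours. Most barcodes of FVIO-MHT replicate 3 lay in clusters 5 and 7, led by Krt7 and Tnnt2 and by Wfdc2 and Spp1. Most of PBS replicate 1 lay in cluster 6, led by Wfdc2 and Cp, and most of PBS replicates 2 and 3 in clusters 14 and 8, led by Tnnt2 with Hspa1b and with Cp. Within cluster 8, with at least 20 barcodes in each of 5 libraries, Hsp90b1 was 4012 and 3331 CPM with FVIO-MHT and 4071, 5651 and 5002 CPM with PBS. Its order stood there only narrowly, at 4012 CPM in FVIO-MHT replicate 2 (57 barcodes) and 4071 CPM in PBS replicate 1 (66 barcodes). Within cluster 7 Hsp90b1 was 4219 and 4547 CPM with FVIO-MHT (replicates 2 and 3) and 5318 and 4508 CPM with PBS (replicates 1 and 2), which overlap. Pdia6 within cluster 7 was 736 and 893 CPM with FVIO-MHT and 698 and 436 CPM with PBS, and within cluster 8 it was 814 and 919 CPM and 896, 437 and 685 CPM, which overlap. The summed heat shock level in this class was 5973 and 6389 CPM with FVIO-MHT (replicates 2 and 3) and 7075, 16292 and 12965 CPM with PBS (replicates 1 to 3), and that of immediate early genes was 7921 and 3359 CPM and 16572, 15185 and 14202 CPM. Their part in the member values was not tested.

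In macrophage/monocyte-like cells, with 2 FVIO-MHT and 3 PBS libraries, 0 of 10 members and 0 of 3173 genes (0.0%) passed with edgeR, 0 members and 134 genes had an unadjusted p under 0.05, and DESeq2 called 4 genes and 0 members. Herpud1 had 84.3 ± 36.6 CPM with FVIO-MHT (SD, n = 2) and 197 ± 141 CPM with PBS (SD, n = 3). The log2 fold change was -1.09 ± 0.61 (SE; edgeR adjusted p = 0.991). Pdia6 had 651 ± 177 CPM and 481 ± 101 CPM, a log2 fold change of 0.47 ± 0.41 (edgeR adjusted p = 0.991). The other 8 lay between -0.38 and 0.42, with a median over the 10 of 0.078 and over all genes of 0.012. The groups overlapped in CPM for all 10 members, so 0 lay wholly above or below, where 9.05% of genes lay above and 9.55% below. Heat shock genes summed to 1329.7 and 4157 CPM with FVIO-MHT and 2495, 16326 and 8454 CPM with PBS in this class, and their part was not tested.

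In fibroblast-like cells, with 2 libraries in each group, 7 members could be tested and 0 passed, where 1 of 1311 genes did (0.0763%). DESeq2 called 4 genes and 0 members, and 0 members and 56 genes had an unadjusted p under 0.05 with edgeR. Hspa5 was 2699 and 3564 CPM with FVIO-MHT (replicates 2 and 3) and 1618 and 2184 CPM with PBS (replicates 2 and 3), a log2 fold change of 0.65 ± 0.57 (SE; edgeR adjusted p = 0.995). Pdia4 was 187 and 374 CPM and 99.1 and 119 CPM, a log2 fold change of 1.27 ± 0.65 (edgeR adjusted p = 0.995), from 17 and 42 UMIs with FVIO-MHT and 3 and 5 with PBS. For both, every FVIO-MHT value lay above every PBS value, as for 17.2% of genes. Heat shock genes summed to 2126 and 4223 CPM with FVIO-MHT and 23646 and 21109 CPM with PBS in this class, and both PBS libraries are those that share barcodes. Their part was not tested. Hsp90b1 was at -0.43 ± 0.59, Pdia3 at 0.19 ± 0.56, Pdia6 at 0.20 ± 0.59, Atf4 at 0.17 ± 0.56 and Ddit3 at -0.46 ± 0.70 on the log2 scale, while Xbp1, Herpud1 and Sdf2l1 had too few UMIs to be tested. This class carried pericyte and smooth muscle markers beside those of fibroblasts.

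**Figure D4:**
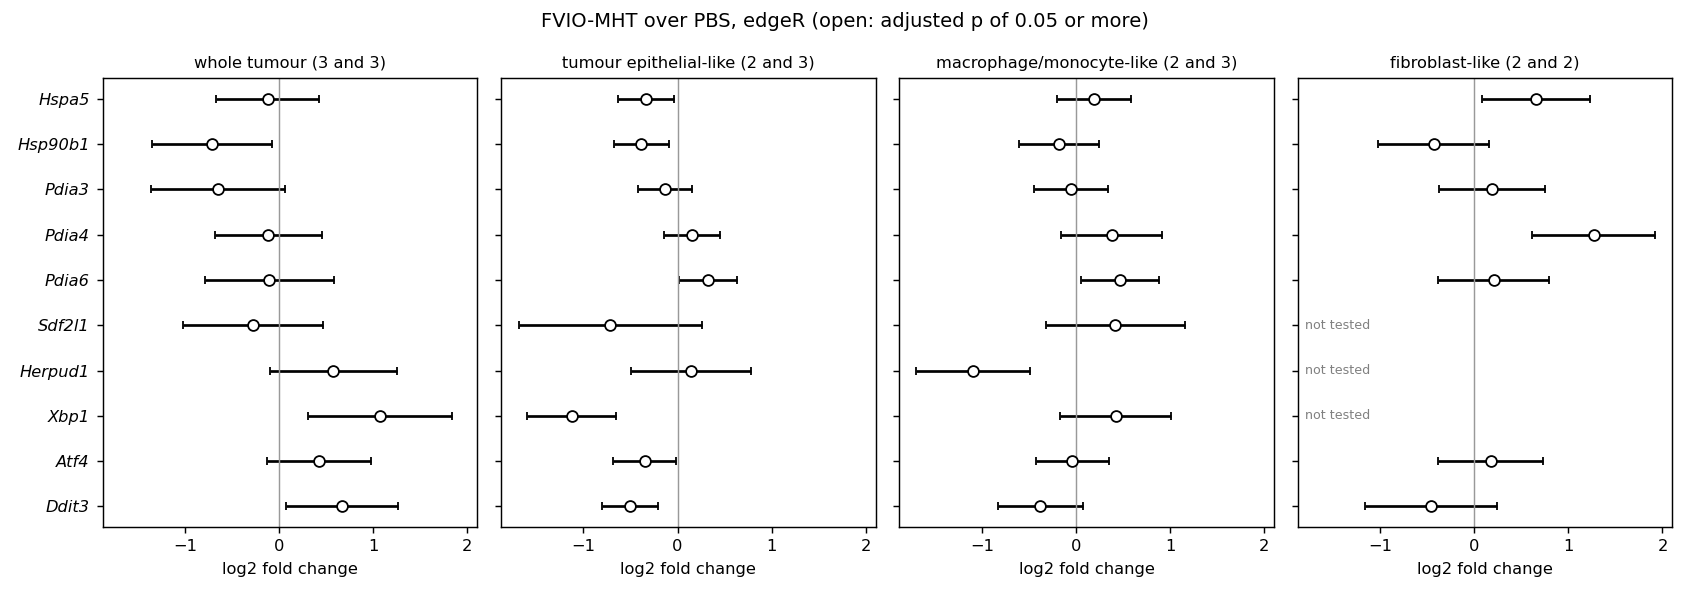
Log2 fold change of FVIO-MHT over PBS (horizontal axis) for each gene in whole tumours and 3 classes, from edgeR, with the number of FVIO-MHT and PBS libraries above each panel. Points are estimates and bars 1 standard error. All points are open: no member reached an adjusted p under 0.05 in any panel.

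Whether the difference between FVIO-MHT and PBS was itself different in tumour epithelial-like and macrophage/monocyte-like cells was tested by an interaction over 5 libraries. Of 9 members tested 0 passed, and of 4163 genes 1 did (0.024%). In the same edgeR fit 1 member and 247 genes had an unadjusted p under 0.05. Herpud1 had the largest positive value, 1.53 ± 0.57 (SE; edgeR adjusted p = 0.734), and Xbp1 the largest negative one, -1.54 ± 0.76 (edgeR adjusted p = 0.854). The remaining 7 lay between -0.52 ± 0.38 for Hspa5 and -0.083 ± 0.38 for Pdia6.

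Of the other pathway genes 0 passed between FVIO-MHT and PBS with edgeR, out of 53 tested in whole tumours, 52 in tumour epithelial-like, 36 in macrophage/monocyte-like and 20 in fibroblast-like cells. Unadjusted p was under 0.05 for 4, 4, 2 and 0 of them, and DESeq2 called 1, 2, 0 and 0. By list, 7 of 8 PERK and ATF4 targets had values below 0 in tumour epithelial-like cells, with a median of -0.60 on the log2 scale. The chaperone genes had 6 of 17 below 0 and a median of 0.062, and all genes tested a median of 0.0097. Over whole tumours 3 of 9 PERK and ATF4 targets lay below 0, with a median of 1.28. Those below 0 in macrophage/monocyte-like cells were 4 of 7 (median -0.66), and in fibroblast-like cells 1 of 3 (median 0.031). Medians of all genes in these comparisons were -0.043, 0.012 and 0.020. In tumour epithelial-like cells the lowest p-values belonged to Atf3, a stress-induced transcription factor that also stands in the immediate early list, and to Nupr1. Atf3 stood at 381 and 203 CPM with FVIO-MHT (replicates 2 and 3), against 1044, 1681 and 1520.3 CPM with PBS (replicates 1 to 3), a log2 fold change of -2.40 ± 0.40 (SE; edgeR adjusted p = 0.325). Nupr1 stood at 208 and 129 CPM, against 303, 758 and 646 CPM, a log2 fold change of -1.89 ± 0.45 (edgeR adjusted p = 0.325). For both genes every FVIO-MHT value lay below every PBS value, an order held by 9.34% of the 7583 genes tested. DESeq2 put the adjusted p at 6.20e-06 for Atf3 and 0.0113 for Nupr1, and over the edgeR alternatives it ran from 4.31e-06 to 0.996 for Atf3 and from 0.000534 to 0.9997 for Nupr1. Without PBS replicates 2 and 3 the log2 fold changes were -1.93 and -0.93.

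In the same class Asns, asparagine synthetase and an ATF4 target, was among the genes of lowest p with a positive value, at 1.89 ± 0.65 on the log2 scale, with an edgeR adjusted p of 0.473. In macrophage/monocyte-like cells those of lowest p were the translocon-associated genes Ssr2 (1.64 ± 0.65) and Ssr1 (1.23 ± 0.54), and on the other side Ero1l (-1.41 ± 0.71) and Ppp1r15a (-0.75 ± 0.45). In whole tumours they were Slc7a11 (3.46 ± 1.16) and P4hb (1.63 ± 0.71), with Atf3 (-1.41 ± 0.55) and Nupr1 (-1.37 ± 0.58) on the other side. In fibroblast-like cells they were Ssr2 (1.31 ± 0.80) and Sec61b (1.11 ± 0.78), with Spcs2 (-0.38 ± 0.61) and Calr (-0.35 ± 0.59) on the other side. In the interaction Spcs3 (0.70 ± 0.53) and Mbtps1 (0.92 ± 0.71) stood opposite Atf3 (-2.37 ± 0.69) and Nupr1 (-1.15 ± 0.43). Apart from tumour epithelial-like cells, these had edgeR adjusted p of 0.515 to 0.995.

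Across 26 sums of a class or numbered cluster in a library, the isomerases and Hsp90b1 had their highest coefficients with each other. Pearson's r of log2(CPM + 50) was 0.86 for Hsp90b1 and Pdia3, 0.77 for Pdia4 and Pdia6, 0.75 for Pdia3 and Pdia6 and 0.74 for Hsp90b1 and Pdia6. Ddit3 went with Xbp1, at 0.63, and Atf4 with Herpud1, at 0.55. Xbp1 ran opposite to Hsp90b1, at -0.51, and to Pdia6, at -0.50. Its mean over these sums was 83.0 CPM, so every coefficient of Xbp1 rests on few UMIs. The coefficients of Hspa5 ran from -0.17 with Xbp1 to 0.57 with Pdia4. The 5 genes whose pattern was most like that of Hspa5, among 2006 ranked, were Lgals1 (0.73), Anxa5 (0.72), Npc2 (0.70), Gpx4 (0.68) and Myof (0.68), none of them a member. These coefficients describe sums that share libraries, classes and depth, and carry no test.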

How the data were processed

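UMI counts per gene and barcode were deposited by the authors as 1 matrix of raw counts for each library. Per the submitters' processing notes, STAR 2.7.2b and the build mm10 were used, and no source used here gives the counter, the annotation or the use of strand. From these counts, repeat rows of a symbol were dropped (27998 to 27933), barcodes with at least 200 genes were kept, and clusters were made with scanpy 1.11.5 (Leiden) without the members and their pathway genes. A class qualified for a cluster where at least 3 of its markers were present in at least 5% of barcodes and 2-fold over the median of the other clusters. The mean log2 value over all its markers had to reach 2-fold too. Tumour epithelial gave the name only where no other class qualified. Where several qualified, another class gave the name if it had the most markers among the 10 leading genes. No name was used where a different class had more markers among the leading genes. This naming rule was settled after leading genes had been seen. Scrublet called 39 barcodes (0.579%), which were kept. Counts were summed per library and class, with at least 20 barcodes, and tested with edgeR 4.0.16 (quasi-likelihood, TMM, filterByExpr, Benjamini-Hochberg over all genes tested, threshold 0.05), with DESeq2 1.42.0 as an alternative. Standard errors are the log2 fold change over the square root of F. The tests of FVIO-MHT against PBS were also run on simulated data with known changes, while the class contrasts and the interaction were not. Each simulation gave all genes the same spread and all libraries the same makeup, so it does not show the power of these tests here. Class contrasts used the library as a block. Mean values are over libraries, intervals are exact Poisson at 95%, and a count of 0 allows 3 counts. Gene positions are GENCODE's on GRCm38, and promoters RefSeq's on GRCm38.p6, each matched for 10 of 10 members. The full form of element II was added after a form with 1 G fewer had been searched. Other pathway genes were named where they passed, and otherwise as the 2 of lowest p in each direction. A result that this rule would name is not reported here. Alternatives changed the scaling, tool, filter, gene minimum, doublets, block, clustering and libraries. Members and lists were chosen with earlier results of these data known. Depth ran from 678337 to 2207534 UMIs a library.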

Additional observations from a re-analysis of the deposited data

How the results depend on the processing

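Counts of called members held in every alternative except where named. In the contrast of tumour epithelial-like with macrophage/monocyte-like cells, Atf4, Ddit3 and Herpud1 remained called throughout, and Xbp1 joined them without PBS replicate 1. Sdf2l1, otherwise untested, was also called without PBS replicate 3. It met the filter on low counts there through the macrophage/monocyte-like sums alone, which favoured a lower value in advance. In the contrast of neutrophil-like with macrophage/monocyte-like cells, Hspa5 joined the 4 called members with total UMIs alone. Between FVIO-MHT and PBS, 0 members passed in every alternative run, while the number of genes called moved. In whole tumours it was 185 with DESeq2 and 2 with no filter on low counts. In macrophage/monocyte-like cells it was 4 with DESeq2, 19 with no filter, and 0 to 49 when each library was left out in turn. In tumour epithelial-like cells it was 32 with DESeq2, 159 with no filter, 6 without PBS replicates 2 and 3, and 0 to 202 when each library was left out. In fibroblast-like cells it was 4 with DESeq2, 12 with no filter, 3 without shared barcodes, 0 without called doublets or at a clustering resolution of 2, and 10 to 37 when each library was left out. In the interaction it was 0 to 36 when each library was left out. The cause of these moves was not tested.

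The labels do not state whether replicate numbers pair the libraries. Deviations of same-numbered libraries from their group means correlated from -0.27 in fibroblast-like cells to 0.16 for replicate 1 of whole tumours. With so few libraries in each group, these values cannot show whether the libraries were paired. With the replicate number as a block, 122 genes passed in tumour epithelial-like and 5 in fibroblast-like cells, and 19 in fibroblast-like cells with the numbers crossed, each time with 0 members. The class contrasts hold the library as a block already.

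Log2 fold changes whose sign turned were all of uncalled members. In whole tumours the values were, at a minimum of 400 genes a barcode Pdia4 (0.043), Atf4 (-0.27), Ddit3 (-0.41), Xbp1 (-0.62) and Herpud1 (-0.14), and at a minimum of 100 genes Hspa5 (0.038) and Pdia6 (0.0057), and without neutrophil-like barcodes Pdia4 (0.12), Pdia6 (0.089), Ddit3 (-0.41), Xbp1 (-0.35) and Herpud1 (-0.11), and without PBS replicates 2 and 3 Herpud1 (-0.27). In macrophage/monocyte-like cells the values were, with no filter on low counts Pdia3 (0.036) and Atf4 (0.063), and at a minimum of 400 genes a barcode Atf4 (0.043) and Sdf2l1 (-0.061), and with the replicate number as a block Pdia4 (-0.029) and Atf4 (0.035), and with the mixed macrophage and neutrophil cluster added Atf4 (0.19), and without PBS replicates 2 and 3 Hspa5 (-0.075), Pdia3 (0.30) and Ddit3 (0.038). In tumour epithelial-like cells the values were, without PBS replicates 2 and 3 Pdia4 (-0.080), Pdia6 (-0.010) and Herpud1 (-0.94). In the interaction the values were, scaled by total UMIs alone Pdia3 (0.025) and Pdia6 (0.035), and at a clustering resolution of 2 Pdia4 (0.040). In the contrast of tumour epithelial-like with macrophage/monocyte-like cells the values were, scaled by total UMIs alone Pdia6 (0.085). Leaving out libraries also turned signs, with these lowest and highest values: in whole tumours, Pdia4 (-0.52 to 0.29), Pdia6 (-0.59 to 0.38), Atf4 (-0.042 to 0.62), Ddit3 (-0.12 to 0.96), Xbp1 (-0.24 to 1.49) and Sdf2l1 (-1.48 to 0.15). In macrophage/monocyte-like cells, Hsp90b1 (-0.68 to 0.18), Pdia3 (-0.23 to 0.085), Atf4 (-0.23 to 0.12), Hspa5 (-0.043 to 0.39) and Pdia4 (-0.64 to 0.92). In tumour epithelial-like cells, Pdia3 (-0.33 to 0.041), Sdf2l1 (-2.72 to 0.42) and Herpud1 (-0.34 to 1.42). In fibroblast-like cells, Pdia6 (-0.072 to 0.51) and Atf4 (-0.029 to 0.49). In the interaction, Hsp90b1 (-0.56 to 0.20), Pdia3 (-0.48 to 0.27), Pdia4 (-0.88 to 0.86), Pdia6 (-0.42 to 0.24), Atf4 (-0.64 to 0.088) and Ddit3 (-0.49 to 0.18). In the contrast of tumour epithelial-like with macrophage/monocyte-like cells, Pdia6 (-0.12 to 0.020). The cause was not tested.

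At a minimum of 400 genes fibroblast-like cells were too few to fit, and leaving out clusters of mixed markers left nothing to fit for fibroblast-like and neutrophil-like cells and took no cluster from the other classes. The contrast of neutrophil-like cells could not be fitted without either library. Depth limits 6 members in the neutrophil-like sums: Sdf2l1 had 0 UMIs in each, Pdia4 0 to 4, Pdia3 2 to 10, Pdia6 2 to 21, Herpud1 1 to 21 and Xbp1 7 to 34. Exact Poisson intervals and limits from a count of 0 cover counting error only.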
